A study of Bos taurus with 8 samples.

Results

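CCL2 and CCL8 are CC chemokines, small secreted proteins that draw leukocytes towards a site of inflammation. CCL2, also called MCP-1, attracts monocytes mainly through the receptor CCR2, and CCL8, also called MCP-2, acts through several receptors, among them CCR1 and CCR2. Monocytes and macrophages are known sources of both, and the genes are classical targets of NF-κB, the transcription factor that Toll-like receptor 4 switches on when lipopolysaccharide (LPS) from the bacterial cell wall binds to it. The 2 genes (CCL2, ENSBTAG00000037811, and CCL8, ENSBTAG00000014113) are 2 of the 21861 genes listed in the scRNA-seq tables. They were chosen because the CCL2 level of monocytes was high without LPS and much lower with it, so that fall is given as a description and was not tested.

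Blood of 4 female Holstein cattle of 2 years was pooled and divided into 4 parts, 1 with no LPS and 3 given LPS (2 µg/ml) and left for 2 h, 4 h or 8 h, and peripheral blood mononuclear cells were then isolated from each part. Each part gave 1 scRNA-seq library, with 7821 cells kept without LPS, 9865 after 2 h, 7387 after 4 h and 3411 after 8 h. The median was 3997 to 4757 unique molecular identifiers (UMIs, one for each RNA molecule caught at its 3′ end) a cell, and library pairs shared 6 to 21 cell barcodes. With 1 library for each treatment, made from animals pooled before treatment, no difference between treatments could be checked against replicates, no p-value can be given, and the intervals given for values below, at a level of 95%, cover counting error only. No incubation time is given for the part without LPS, so LPS, time in incubation and the library itself cannot be told apart in any comparison with it. Accessibility at the 2 genes was not analysed here.

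Monocytes were taken as cells with at least 1 UMI of CD14, the LPS co-receptor, and at least 1 of CSF1R, the receptor for macrophage colony-stimulating factor, and with no UMI of the T cell gene CD3E, the B cell gene MS4A1 or the NK cell gene NCR1. This gave 418 CD14/CSF1R cells without LPS, 130 after 2 h, 39 after 4 h and 32 after 8 h, or 5.34%, 1.32%, 0.528% and 0.938% of the cells kept. All 12 monocyte markers, the 2 of the gate among them, were detected in these cells in each library. After 4 h CD163 was detected by 1 UMI. The 12 summed to 6654 UMIs per 1000000 UMIs (CPM) without LPS. With LPS the sum was 3783 CPM after 2 h, 3903 CPM after 4 h and 5396 CPM after 8 h. The 6 neutrophil markers summed to 8.70 to 35.9 CPM, the 6 T cell markers to at most 6.74 CPM and the 5 dendritic cell markers to 5.55 CPM without LPS and 17.4 CPM after 8 h. The 3 plasma cell markers summed to 88.9 CPM without LPS and 6.64 to 19.6 CPM with LPS, and the part of such RNA in the chemokine levels was not tested. The cells kept had 200 to 3000 genes. That upper limit set aside 76 more cells of the same gate without LPS, 30 after 2 h, 11 after 4 h and 21 after 8 h, which is 15.4%, 18.8%, 22.0% and 39.6% of the gate, so the main values of the CD14/CSF1R cells are also given without the limit.

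CCL2 was several-fold lower in the CD14/CSF1R cells at each time with LPS than without it. Its level was 36252 CPM without LPS (95% interval 36086 to 36419), 11198 CPM after 2 h (11051 to 11348), 5947 CPM after 4 h (5756 to 6143) and 8193 CPM after 8 h (7933 to 8458). The library without LPS was highest and the 4 h library lowest. None of the counting intervals overlapped, but they hold no spread between libraries. The ratio to no LPS was -1.69 on the log2 scale after 2 h (3.24-fold lower), -2.61 after 4 h (6.10-fold lower) and -2.15 after 8 h (4.43-fold lower). The summed monocyte markers were also highest without LPS, at 6654 CPM against 3783 to 5396 CPM with LPS. The gate gene CD14 made up 2337 CPM of the sum without LPS. Single markers differed in course. MS4A7 was at 79.1, 85.3, 144 and 246 CPM in the order no LPS, 2 h, 4 h and 8 h. CD68 was highest after 8 h (1013 CPM, 772 CPM without LPS) and CYBB after 2 h (169 CPM, 121 CPM without LPS). The other markers were highest without LPS. The part of the markers in the CCL2 ratios was not tested. From 2 h to 4 h the difference was -0.91 on the log2 scale, and from 4 h to 8 h it was 0.46. Without the upper limit on genes the levels were 33637, 10450, 4603 and 13426 CPM in the order no LPS, 2 h, 4 h and 8 h. The 8 h level then lay above the 2 h level, where in the cells kept it lay below it. Within the cells over 3000 genes alone, the CCL2 level was 27815 CPM without LPS, 9062 CPM after 2 h, 2419 CPM after 4 h and 17144 CPM after 8 h.

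CCL8 was present at a lower level and did not follow the same course. It stood at 3066 CPM without LPS (3018 to 3115), 2324 CPM after 2 h (2257 to 2392), 2227 CPM after 4 h (2110 to 2348) and 729 CPM after 8 h (653 to 811). The 2 h and 4 h libraries overlapped in their counting intervals, with a log2 difference of -0.062 (-0.15 to 0.026), and the 8 h library was lowest. Its ratio to no LPS was -0.40 on the log2 scale after 2 h, -0.46 after 4 h and -2.07 after 8 h. The size of the fall after 8 h depended on the upper limit on genes. Without that limit the CCL8 level was 3063 CPM without LPS, 3026 CPM after 2 h, 1599 CPM after 4 h and 2796 CPM after 8 h, which makes 4 h the lowest library. In the cells over 3000 genes the level was 3056, 4327, 578 and 4265 CPM in the same order. The 8 h level without the limit came from few cells. Of 53 cells, 34 had no CCL8 UMI and a single cell held 44.7% of the CCL8 UMIs. The 2 h ratio changed sign with the scaling, from -0.40 in CPM to 0.12 with edgeR's TMM factors and 0.15 with DESeq2 size factors.

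**Figure D1:**
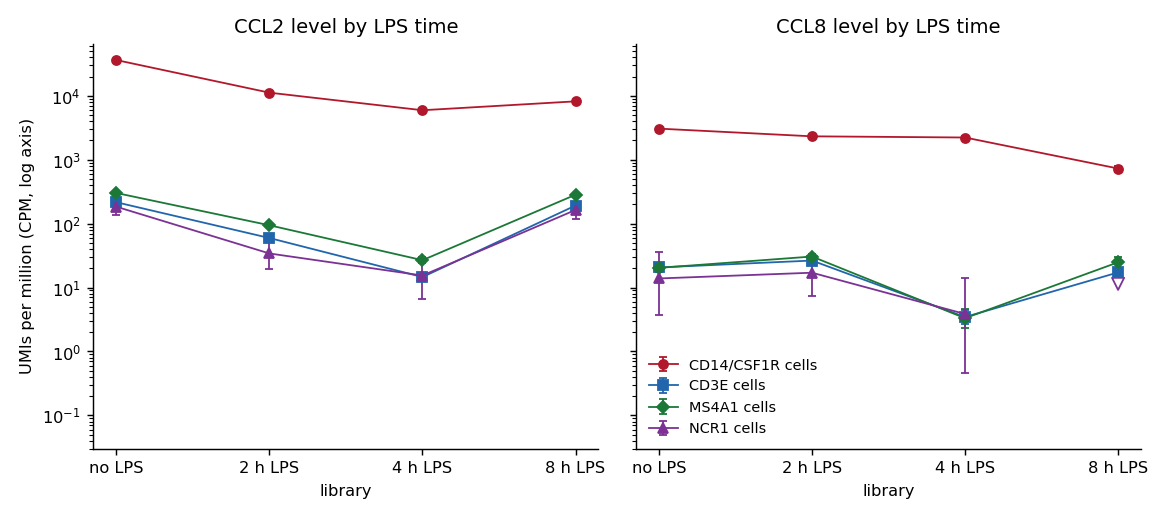
Levels of CCL2 (left) and CCL8 (right) in CPM on a log axis, in the 4 scRNA-seq libraries, for CD14/CSF1R cells and for cells with CD3E, MS4A1 or NCR1. Points are sums over the cells of 1 library, bars are 95% counting intervals, lines join the same gate, and the open triangle is the limit that a count of 0 allows. CCL2 in CD14/CSF1R cells goes from 36252 to 5947 CPM between no LPS and 4 h, and the lymphoid cells lie far below in both panels.

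At a 2-fold threshold in the CD14/CSF1R cells, CCL2 was lower after 2 h, where 27.8% of the 7081 genes compared were lower by at least 2-fold and 4.14% higher. It was past the same threshold after 4 h (15.5% of 6853 genes lower, 5.66% higher) and after 8 h (13.7% of 6824 genes lower, 5.22% higher), and CCL8 was past it after 8 h only. From 2 h to 4 h neither chemokine was past it (11.5% of 4671 genes higher, 4% lower), and from 4 h to 8 h CCL8 was, with a log2 difference of -1.61 (4.72% of 3457 genes higher, 5.58% lower). As the genes were chosen on this contrast, nothing is read from these counts. Counted from the lowest ratio, CCL2 was gene 713 after 2 h, 73 after 4 h and 106 after 8 h, and CCL8 was gene 4406, 2311 and 128. The median log2 ratio of all genes compared was -0.58 after 2 h, -0.18 after 4 h and -0.14 after 8 h, so after 2 h CCL2 lay below the median gene and CCL8 above it. TMM moved every ratio to no LPS by 0.52, 0.077 and 0.053 and DESeq2 size factors by 0.55, 0.17 and 0.13 after 2 h, 4 h and 8 h. Genes higher by at least 2-fold made up 13.0%, 26.7% and 27.6% of all genes past the threshold in CPM, 40.3%, 32.2% and 32.3% with TMM, and 42.8%, 39.3% and 42.1% with DESeq2 size factors. CCL2 was lower by at least 2-fold at each time with each of these scalings.

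The single cells show how the CCL2 level was spread. Without LPS the median CD14/CSF1R cell had 245 CCL2 UMIs per 10000 UMIs, with the middle of the cells between 54.3 and 513 (quartiles) and the highest at 1456. The median was 60.1 after 2 h (5.11 to 168), 14.2 after 4 h (1.68 to 68.3) and 17.8 after 8 h (0.762 to 144). The ranges of the libraries overlapped, and the highest cell with LPS still had 838 after 2 h, 449 after 4 h and 878 after 8 h. Cells with at least 100 CCL2 UMIs per 10000 were 285 of 418 without LPS (68.2%), 47 of 130 after 2 h (36.2%), 8 of 39 after 4 h (20.5%) and 11 of 32 after 8 h (34.4%). The cell with the most CCL2 held 1.36% of the gate's CCL2 UMIs without LPS, 4.98% after 2 h, 15.2% after 4 h and 21.4% after 8 h. After 8 h the median moved from 17.8 to 113 when the cells over 3000 genes were included.

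CCL8 was carried by fewer cells. The median cell had 0 CCL8 UMIs per 10000 without LPS, after 4 h and after 8 h and 0.166 after 2 h, and 210 of 418, 65 of 130, 25 of 39 and 24 of 32 cells had no CCL8 UMI. The highest cell had 727 per 10000 without LPS, 301 after 2 h, 347 after 4 h and 240 after 8 h. The tenth of the cells with the most CCL8 held 72.0% of its UMIs without LPS, 63.5% after 2 h, 72.9% after 4 h and 97.3% after 8 h. A single cell held 42.8% of them after 4 h and 83.9% after 8 h, against 6.53% without LPS and 9.25% after 2 h. Without the upper limit on genes, the top cell held 44.7% of them after 8 h. With the top cell left out of each library, the CCL8 ratio to no LPS was -0.43 on the log2 scale after 2 h, -1.13 after 4 h and -4.58 after 8 h, and the CCL2 ratio was -1.74, -2.80 and -2.41. The 4 h and 8 h levels of CCL8 are therefore levels of a few cells.

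**Figure D2:**
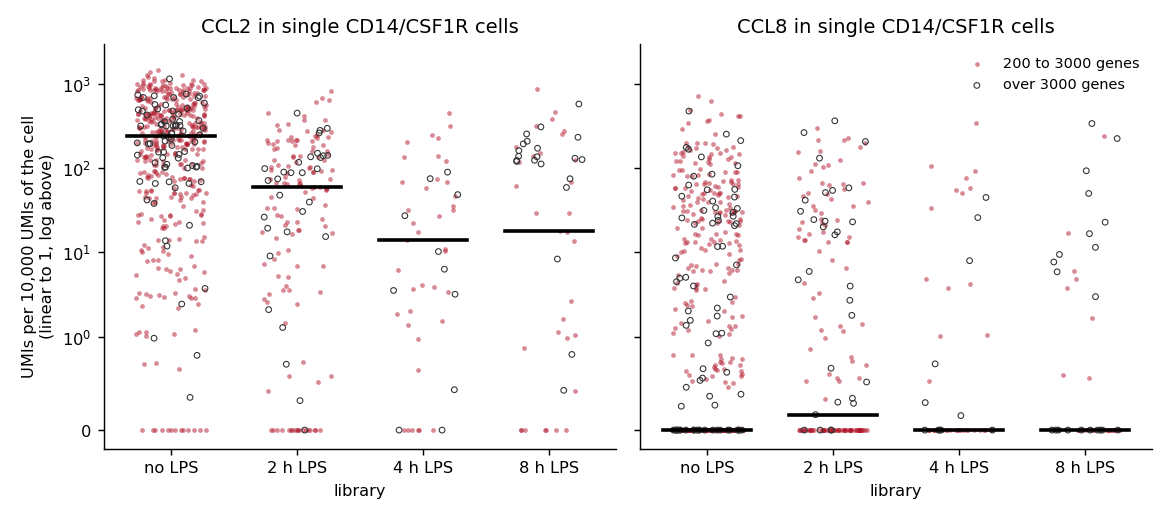
UMIs of CCL2 (left) and CCL8 (right) per 10000 UMIs of the cell in single CD14/CSF1R cells of each library, on an axis that is linear up to 1 and logarithmic above. Filled points are cells with 200 to 3000 genes, open circles cells over 3000 genes, and bars the medians of the filled points. The CCL2 median goes from 245 without LPS to 14.2 after 4 h, while that of CCL8 is at or near 0 in each library.

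Depth differed between the gates, so each cell was also thinned to 1000 UMIs, leaving out 7 CD14/CSF1R cells without LPS and 1 after 8 h as shallower. A CCL2 UMI was then found in 370 of 411 CD14/CSF1R cells without LPS (90.0%, exact interval 86.7% to 92.7%), 100 of 130 after 2 h (76.9%), 25 of 39 after 4 h (64.1%) and 20 of 31 after 8 h (64.5%). The unthinned shares were 96.9%, 86.2%, 84.6% and 78.1%. For CCL8 the thinned share was 34.3% without LPS, 33.8% after 2 h, 23.1% after 4 h and 16.1% after 8 h, and the unthinned one 49.8%, 50.0%, 35.9% and 25.0%. The share with CCL2 was highest without LPS. Its intervals with LPS were 68.7% to 83.9% after 2 h, 47.2% to 78.8% after 4 h and 45.4% to 80.8% after 8 h. They cover the counting of cells within 1 library, and as CCL2 was chosen for this contrast nothing is read from them. For CCL8 the intervals were 29.7% to 39.1% without LPS, 25.8% to 42.7% after 2 h, 11.1% to 39.3% after 4 h and 5.45% to 33.7% after 8 h, and all 4 overlapped.

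In the thinned CD14/CSF1R cells without LPS, 137 had both genes, 233 CCL2 alone, 4 CCL8 alone and 37 neither. The counts in the same order were 40, 60, 4 and 26 after 2 h. They were 8, 17, 1 and 13 after 4 h and 4, 16, 1 and 10 after 8 h. Of the cells with CCL8, 97.2% had CCL2 without LPS, 90.9% after 2 h and 88.9% after 4 h, against 86.3%, 69.8% and 56.7% of the cells without CCL8. After 8 h it was 4 of 5 cells with CCL8 (80%) against 61.5% of the others. Cells with CCL8 had a higher median of CCL2 in each library, with 40 UMIs against 16 in the other cells without LPS, 14.5 against 2.5 after 2 h, 14 against 1 after 4 h and 9 against 1 after 8 h. Across the cells of 1 library, which share its depth and free RNA, Spearman's rho between the genes was 0.36 without LPS, 0.41 after 2 h, 0.49 after 4 h and 0.24 after 8 h, as a description.

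The CCL2 to CCL8 ratio does not depend on the scaling of the library. Both counts are of 3′ ends and were not divided by transcript length, so the ratio is one of molecules caught. In CD14/CSF1R cells there were 11.8 CCL2 UMIs for each CCL8 UMI without LPS (interval 11.6 to 12.0), 4.82 after 2 h (4.67 to 4.98), 2.67 after 4 h (2.51 to 2.84) and 11.2 after 8 h (10.1 to 12.6). The ratio was lowest after 4 h. The 8 h value rested on 1 cell, and with the cell of most CCL8 left out of each library, a choice made after the values were seen, the ratios were 12.6, 5.25, 3.98 and 59.7 (45.7 to 79.7), the last from 54 CCL8 UMIs. Without the upper limit on genes the ratios were 11.0, 3.45, 2.88 and 4.80, so that the 8 h value stood apart from the value without LPS.

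**Figure D3:**
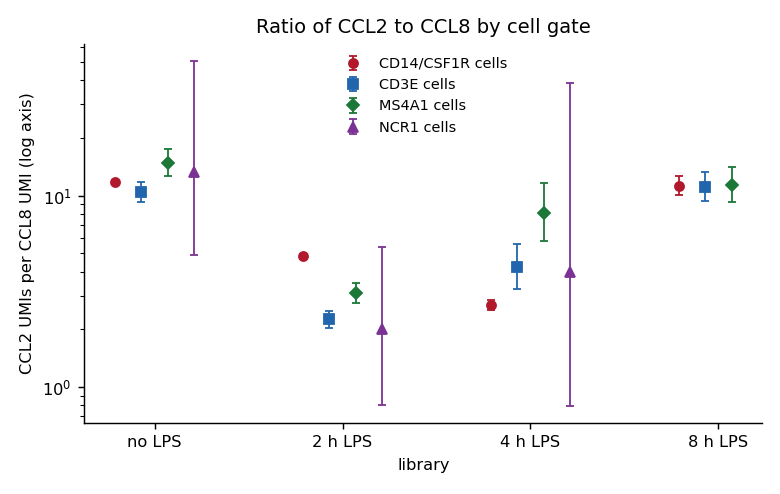
CCL2 UMIs for each CCL8 UMI on a log axis, in CD14/CSF1R cells and in cells with CD3E, MS4A1 or NCR1 of the 4 libraries. Points are ratios of summed UMIs and bars 95% counting intervals, and NCR1 cells after 8 h had no CCL8 UMI and are not drawn. In CD14/CSF1R cells the ratio is 11.8 without LPS, 2.67 after 4 h and 11.2 after 8 h, or 59.7 after 8 h without the 1 cell that held most CCL8.

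T, B and NK cells, which are not known as main sources of either chemokine, give the background against which the monocyte values stand. The cells with CD3E and no other gate gene numbered 3467 without LPS, 4935 after 2 h, 3857 after 4 h and 1539 after 8 h, with median depths of 4069 to 5256 UMIs against 13254.5 to 16173 in the CD14/CSF1R cells. CCL2 in CD3E cells was at 216 CPM without LPS, 59.6 CPM after 2 h, 14.6 CPM after 4 h and 192 CPM after 8 h. In MS4A1 cells it was at 301, 94.3, 26.8 and 283 CPM and in NCR1 cells at 184, 34.1, 15.4 and 164 CPM in the same order. In each of the 3 lymphoid gates 4 h was lowest. In NCR1 cells that rests on 8 UMIs after 4 h and 16 after 2 h. The log2 interval between these 2 libraries, -2.58 to 0.16, included 0. Thinned to 2000 UMIs, NCR1 cells had a mean of 0.0562 CCL2 UMIs a cell after 4 h and 0.0421 after 2 h. After 8 h the order against no LPS changed with the handling of depth. In thinned cells CCL2 was at 343 CPM after 8 h and 242 CPM without LPS in CD3E cells, 728 and 271 CPM in MS4A1 cells, and 289 and 138 CPM in NCR1 cells. The NCR1 values rest on 11 UMIs in 4 of 38 cells after 8 h and 8 UMIs in 8 of 58 cells without LPS. The share of NCR1 cells with a UMI was lower after 8 h, at 10.5% against 13.8%. Thinning to 2000 UMIs, which leaves out more shallow cells, turned the order round in CD3E and MS4A1 cells. CCL2 then had a mean of 0.342 UMIs a cell after 8 h and 0.479 without LPS in CD3E cells. The means were 0.476 and 0.538 in MS4A1 cells, and 0.605 and 0.328 in NCR1 cells. Without the upper limit on genes, CCL2 after 4 h was at 50.2 CPM in CD3E cells, next to 54.2 CPM after 2 h, and after 8 h it was at 199 CPM in MS4A1 cells. As a percent of the CD14/CSF1R level of the same library, CCL2 in CD3E cells was 0.596%, 0.532%, 0.245% and 2.34%, and in MS4A1 cells 0.831%, 0.842%, 0.450% and 3.46%. The median of the 10 other monocyte markers in CD3E cells, by the same measure, was 0.538%, 0.454%, 0.357% and 0.863%, in MS4A1 cells 0.525%, 0.828%, 0.476% and 1.47%, and in NCR1 cells 0 in each library. CCL2 in NCR1 cells was at 0.507%, 0.305%, 0.259% and 2.00%.

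The level of CCL8 in CD3E cells was 20.7 CPM without LPS, 26.5 CPM after 2 h, 3.46 CPM after 4 h and 17.3 CPM after 8 h, and in MS4A1 cells 20.3, 30.6, 3.32 and 24.9 CPM. NCR1 cells had 4, 8, 2 and 0 CCL8 UMIs, and the 0 after 8 h allows up to 11.4 CPM. Relative to CD14/CSF1R cells, CCL8 in CD3E cells was at 0.674%, 1.14%, 0.155% and 2.37% and in MS4A1 cells at 0.663%, 1.32%, 0.149% and 3.41%, above the share of CCL2 after 2 h and below it after 4 h. Without the upper limit on genes CCL8 in CD3E cells was at 13.9 CPM after 4 h. In thinned cells a CCL2 UMI was found in 19.4%, 3.89%, 1.62% and 13.4% of CD3E cells and a CCL8 UMI in 1.93%, 1.21%, 0.450% and 3.09%. After 2 h CCL8 lay higher than without LPS in CD3E cells (0.36 on the log2 scale) and MS4A1 cells (0.59), where in CD14/CSF1R cells it lay lower (-0.40). The contrast depended on the processing. In thinned cells CCL8 was at 20.5 CPM without LPS and 14.8 CPM after 2 h in CD3E cells and at 20.8 and 21.2 CPM in MS4A1 cells, and with TMM or DESeq2 size factors its ratio in CD14/CSF1R cells was above 0 (0.12 and 0.15).

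After 8 h the levels in lymphoid cells were higher in shallow cells. With a split at 2000 UMIs that was chosen after the values were seen, the 152 CD3E cells below it had CCL2 at 2982 CPM and the 1387 others at 126 CPM, although the shallow cells held 569 of its UMIs and the others 1022. In MS4A1 cells the levels were 4101 CPM in 121 shallow cells and 134 CPM in 536 others. CCL8 followed, with 252 against 11.7 CPM in CD3E cells and 394 against 10.4 CPM in MS4A1 cells. Without LPS the same split gave CCL2 levels of 521 and 210 CPM in CD3E cells and 670 and 293 CPM in MS4A1 cells, so among the deeper cells CCL2 was lower after 8 h than without LPS. Spearman's rho between CCL2 and CCL8 over thinned lymphoid cells was 0.31 in CD3E and 0.45 in MS4A1 cells after 8 h and at most 0.064 in these gates in the other libraries. The part of shallow cells in the 8 h levels of CD14/CSF1R cells was not tested. With a minimum of 1000 UMIs a cell, the 8 h ratios to no LPS were -2.15 for CCL2 and -2.06 for CCL8. Cells of at least 2000 UMIs were also thinned to 2000. CCL2 then had a mean of 15.3 UMIs a cell after 8 h and 67.5 without LPS, and CCL8 1.79 and 5.66.

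Over all cells kept, CCL2 stood at 7539 CPM without LPS, 1254 CPM after 2 h, 375 CPM after 4 h and 1139 CPM after 8 h, and CCL8 at 707, 395, 80.3 and 130 CPM. In such sums, fewer monocytes and less RNA in each monocyte cannot be told apart, and the CD14/CSF1R share was itself lower with LPS. Among all cells kept, 644 had at least 100 CCL2 UMIs per 10000 without LPS (8.23%), 131 after 2 h (1.33%), 34 after 4 h (0.460%) and 65 after 8 h (1.91%). These cells held 94.7%, 82.8%, 81.6% and 55.5% of the CCL2 UMIs of the cells kept. For CCL8 the same threshold gave 86, 40, 6 and 2 cells. Many CCL2 UMIs lay outside the gate. With cells over 3000 genes counted in, the 418, 130, 39 and 32 CD14/CSF1R cells held 32.7%, 16.5%, 6.18% and 3.54% of each library's CCL2 UMIs. Cells over 3000 genes with CD14 or CSF1R together with a lymphoid gene held 35.6% without LPS, 46.3% after 2 h, 65.9% after 4 h and 70.2% after 8 h. In them CCL2 was at 16764, 8812, 5331 and 8963 CPM, in the same order of libraries as in the cells kept apart from 2 h and 8 h.

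In a gate that used neither CD14 nor CSF1R, CCL2 was again highest without LPS and lowest after 4 h. Cells with at least 3 of the other monocyte markers numbered 680, 255, 79 and 52, and their CCL2 level was 34714 CPM without LPS, 11281 CPM after 2 h, 8107 CPM after 4 h and 12761 CPM after 8 h. Their CCL8 level was 3203, 2893, 1980 and 1957 CPM, with a ratio to no LPS of -0.71 on the log2 scale after 8 h. CCL2 was lower than without LPS by at least 2-fold at each time in this gate, and CCL8 at none.

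Other CC chemokines of the CD14/CSF1R cells moved the other way after 2 h. Of the 21 CCL genes listed, 19 are in the table and 6 had at least 20 UMIs over the 2 libraries of each comparison with no LPS, which is the minimum used for every gene compared. After 2 h of LPS, 4 of the 6 were higher and 1, CCL2, lower by at least 2-fold, with a median log2 ratio of 1.37, where 4.14% of all genes were higher and 27.8% lower and the median was -0.58. After 4 h of LPS, 2 were higher and 1 lower (median 0.86), and after 8 h of LPS, 1 was higher and 2, CCL2 and CCL8, lower (median 0.14). With TMM or DESeq2 size factors 3 were higher after 4 h, where 448 and 552 of all 6853 genes were. CCL3, which attracts monocytes and T cells, was at 4571 CPM without LPS, 14454 CPM after 2 h, 11764 CPM after 4 h and 6755 CPM after 8 h. CCL4, a close relative of CCL3, was at 3416, 12316, 8350 and 5665 CPM and CCL5, which attracts T cells and monocytes, at 1765, 3737, 2997 and 1451 CPM. CCL20, which acts through CCR6, went from 208 CPM without LPS to 4270 CPM after 2 h, 402 CPM after 4 h and 1203 CPM after 8 h. In 3′ UMIs not divided by length, CCL2 was the highest of the 6 without LPS and after 8 h, and CCL3 and CCL4 lay above it after 2 h and 4 h. The other 13 CCL genes had at most 4 UMIs in any library's CD14/CSF1R cells, among them CCL11, a close relative of CCL2 and CCL8, with 0 in each.

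The receptors were sparse. CCR1 was at 283 CPM in CD14/CSF1R cells without LPS, 97.5 CPM after 2 h, 251 CPM after 4 h and 268 CPM after 8 h. CCRL2, which binds chemerin, was at 21.4, 29.6, 52.2 and 21.7 CPM. CCR2, the main receptor of CCL2, had 0 UMIs in the CD14/CSF1R cells of each library and 4 to 12 UMIs over all cells kept. In the CD14/CSF1R cells its exact interval reaches 0.732 CPM without LPS and 8.02 CPM after 8 h. CCR3 had at most 4 UMIs in the gate, and the scavenging receptors ACKR1 and ACKR2 had 0. Of the 2 receptors compared, CCR1 was lower by at least 2-fold after 2 h and CCRL2 higher by at least 2-fold after 4 h, and neither was past that threshold after 8 h. Over all genes, 27.8% were lower after 2 h and 5.66% higher after 4 h, and CCRL2 had 32 UMIs after 4 h. With DESeq2 size factors CCR1 was not past the threshold after 2 h and CCRL2 was, as higher. Of all 7081 genes, 664 were then higher and 887 lower.

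Of 15 transcription factors and inhibitors known at promoters of this kind, 5 were higher and 1 lower by at least 2-fold after 2 h (median 0.49), 2 higher and 1 lower after 4 h (median 0.34) and 2 higher and 1 lower after 8 h (median 0.19). Over all genes 4.14%, 5.66% and 5.22% were higher and 27.8%, 15.5% and 13.7% lower. NFKB1, a subunit of NF-κB, was at 234 CPM without LPS, 603 CPM after 2 h, 441 CPM after 4 h and 257 CPM after 8 h. NFKBIA, the inhibitor that NF-κB itself induces, was at 2670, 5053, 4014 and 2936 CPM. Both were highest after 2 h, where CCL2 was at 11198 CPM. FOS, a subunit of the AP-1 factor, was the gene lower at each time, with 58.1 CPM without LPS and 10.2, 3.26 and 21.7 CPM with LPS, the 4 h value from 2 UMIs. IRF1, an interferon-related factor, was at 37.1, 78.1, 76.7 and 82.6 CPM. With TMM or DESeq2 size factors 8 of the 15 were higher by at least 2-fold after 2 h, and with DESeq2 size factors 4 were after 4 h. Of all 7081 genes, 626 were higher after 2 h with TMM and 664 with DESeq2 size factors. After 4 h 552 of 6853 genes were higher with DESeq2 size factors.

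Among 6 genes of mRNA decay and feedback, 2 were higher by at least 2-fold at each time, where 4.14%, 5.66% and 5.22% of all genes were. With TMM or DESeq2 size factors 3 were higher after 2 h, where 626 and 664 of all 7081 genes were. TNFAIP3, which ends signalling to NF-κB, was at 300 CPM without LPS, 1157 CPM after 2 h, 829 CPM after 4 h and 665 CPM after 8 h. ZC3H12A, a ribonuclease that cuts inflammatory mRNAs and is also called MCP-1-induced protein, was at 25.2, 138, 96.3 and 80.5 CPM. ZFP36, which binds AU-rich elements of such mRNAs, was at 145, 163, 108 and 130 CPM, and its relative ZFP36L1 at 177, 66.4, 91.4 and 159 CPM. ZFP36L1 was the 1 gene of the 6 lower by at least 2-fold, after 2 h, and with TMM it was not past that threshold. The medians of the 6 were 0.41, -0.29 and 0.12 on the log2 scale after 2 h, 4 h and 8 h.

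**Figure D4:**
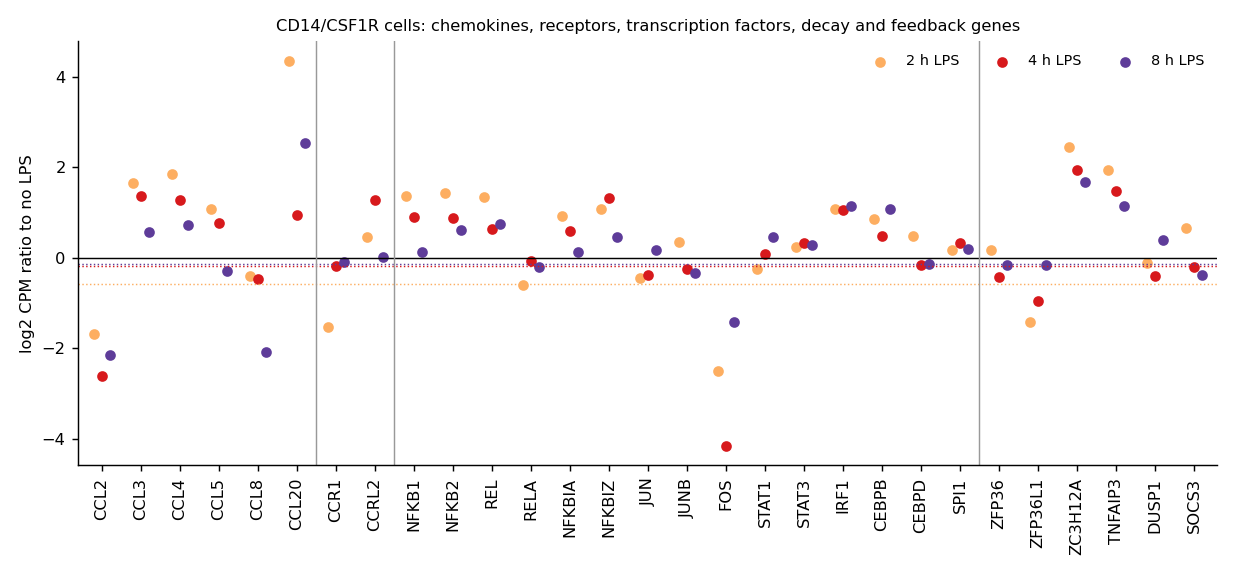
Log2 ratio of CPM to no LPS in CD14/CSF1R cells after 2 h, 4 h and 8 h, for the chemokines, receptors, transcription factors and inhibitors, and decay and feedback genes with at least 20 UMIs, each group between vertical lines. Points are values of 1 library against 1 and dotted lines the median of all genes compared at that time. CCL2 lies at -1.69, -2.61 and -2.15, while CCL3 and CCL4 lie above 0 at each time.

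The genes most like each chemokine were sought over 16 sums, the 4 gates in the 4 libraries, which share libraries and differ above all between monocytes and lymphoid cells. Of 9536 genes, those closest to CCL2 by Pearson's r of log2(CPM + 1) were THBS1 (0.98), FCN1, DEFB7 and SLC11A1 (0.97 each) and SAA2 (0.96). THBS1 encodes thrombospondin 1, a matrix protein, and FCN1 a lectin of monocytes. In CD14/CSF1R cells THBS1 was at 6204 CPM without LPS, 3834 CPM after 2 h, 2664 CPM after 4 h and 3510 CPM after 8 h, the same order of libraries as CCL2. FCN1 had that order too, and DEFB7, SLC11A1 and SAA2 did not. SAA2 was at 2685, 4080, 1205 and 3906 CPM in the order no LPS, 2 h, 4 h and 8 h. SLC11A1 was at 724, 520, 607 and 670 CPM, lowest after 2 h. Closest to CCL8 were an unnamed gene, ENSBTAG00000011961 (0.97), SERPINB2, LAMP1, BRI3 and QKI (0.95 each). SERPINB2, a plasminogen activator inhibitor, was at 4689 CPM without LPS, 4221 CPM after 2 h, 5541 CPM after 4 h and 1361 CPM after 8 h, so it too was lowest after 8 h. QKI was also lowest after 8 h, but the other 3 were not. ENSBTAG00000011961 was at 1117 CPM without LPS, 886 CPM after 2 h, 580 CPM after 4 h and 1114 CPM after 8 h. LAMP1 was likewise lowest after 4 h, and BRI3 was lowest without LPS. CCL8 was gene 154 in likeness to CCL2 (r = 0.90) and CCL2 gene 202 in likeness to CCL8.

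Within the 411 thinned CD14/CSF1R cells without LPS, other chemokines ranked nearest. Of 1006 genes, CCL2 was closest by Spearman's rho to CCL3 (0.38), CCL8 (0.36), CCL4 (0.29), CTSZ (0.22) and MARCKS (0.19). CCL8 was closest to CCL2 (0.36), CCL4 (0.23), TMSB4X and IL6 (0.21 each) and CTSZ (0.19). These are weak correlations over the cells of 1 library and are given as descriptions. CCL3 and CCL4, which ranked near CCL2 among the cells without LPS, were higher after 2 h than without LPS while CCL2 was lower, and IL6, an inflammatory cytokine, was at 1129 CPM without LPS and 4361 CPM after 2 h.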

How the data were processed

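For each scRNA-seq library the authors deposited a table of UMI counts, without normalization, made per the labels with Cell Ranger on the bovine genome ARS-UCD1.2 (bosTau9). For scATAC-seq they deposited counts per gene and barcode, which were not used for CCL2 and CCL8. With limits taken from the study's methods, a cell was kept if it had 200 to 3000 genes, a minimum of 200 UMIs and less than 20% of them mitochondrial, and no doublet caller was run. More cells were kept in each library than the study states for its own. UMIs were summed over the cells of a gate and scaled to 1000000 (CPM). The CD3E, MS4A1 and NCR1 cells each had that gene and none of the other gate genes. Ratios have exact conditional binomial intervals, levels exact Poisson intervals and shares exact Clopper-Pearson intervals. A count of 0 was set to a limit of 3 counts. Thinning drew UMIs without replacement with a fixed seed. The ratio and likeness steps were tested on simulated data. The genes named are CCL2, CCL8, the members of the chemokine, receptor, transcription factor and decay lists, and the 5 genes most like each chemokine, sought where a gene had 200 or more UMIs in the 16 sums or was present in 10% or more of the single cells. The members, lists, markers and comparisons were chosen with earlier results of these data known. A gene of the receptor list is not reported here. CCL7 and CCL23 have no entry of that name in the table, nor have the markers PPBP, PF4 and HBA1. Python libraries were numpy 2.4.6, scipy 1.17.1 and pandas 2.3.3, and edgeR 4.0.16 and DESeq2 1.42.0 gave scaling factors only, with no test. Alternatives covered the gate, the limits on cells, the scaling, thinning, the pseudocount and the minimum of UMIs for a gene.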

Additional observations from a re-analysis of the deposited data

Results flagged for a closer look

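In CPM of unthinned cells, CCL8 differed in opposite directions between cell gates at 2 h. Against no LPS its log2 ratio was 0.36 in CD3E cells (20.7 to 26.5 CPM) and 0.59 in MS4A1 cells (20.3 to 30.6 CPM), and -0.40 in CD14/CSF1R cells (3066 to 2324 CPM). With 1 library for each treatment, the difference between the gates was not tested. In thinned cells CCL8 was at 20.5 CPM without LPS and 14.8 CPM at 2 h in CD3E cells and at 20.8 and 21.2 CPM in MS4A1 cells, and in CD14/CSF1R cells the ratio was 0.12 with TMM and 0.15 with DESeq2 size factors.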

How the results depend on the processing

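Over 14 alternatives, the CCL2 ratio to no LPS ranged from -1.86 to -1.14 on the log2 scale at 2 h, -2.87 to -2.10 at 4 h and -2.41 to -1.11 at 8 h, lower by at least 2-fold in all 14. CCL8 ranged from -0.56 to 0.15 at 2 h (below 0 in 11 of 14), -1.13 to -0.075 at 4 h (past 2-fold in 2) and -4.58 to -0.063 at 8 h (past 2-fold in 11). Ratios that moved by more than their counting interval follow in the order 2 h, 4 h and 8 h, CCL2 first. Without an upper limit on genes, CCL2 was -2.87 at 4 h and -1.33 at 8 h, and CCL8 -0.017, -0.94 and -0.13. With CD14 or CSF1R in place of both, they were -1.67, -2.42 and -1.88, and -0.051, -0.87 and -2.54. With at least 2 UMIs of each, they were -1.86, -2.76 and -2.10, and -0.56, -0.075 and -1.51. With lymphoid UMIs allowed, CCL2 was -1.55, -2.39 and -1.87, and CCL8 -0.093 and -0.75 at 2 h and 4 h. With at least 3 other monocyte markers, they were -1.62, -2.10 and -1.44, and -0.15, -0.69 and -0.71. With TMM, CCL2 was -1.17, -2.53 and -2.09, and CCL8 0.12 at 2 h. With DESeq2 size factors, CCL2 was -1.14, -2.44 and -2.01, and CCL8 0.15 and -0.29 at 2 h and 4 h. With cells weighted equally, they were -1.62, -2.46 and -1.62, and -0.32, -0.55 and -1.87. With thinned cells, CCL2 was -1.59, -2.41 and -1.74, and CCL8 -0.10 at 2 h and -1.27 at 8 h. Of 2 alternatives chosen after the data were seen, leaving out the top cell gave -1.74, -2.80 and -2.41 for CCL2 and -1.13 and -4.58 for CCL8 at 4 h and 8 h. At least 3 other markers with no upper limit on genes gave -1.61, -2.22 and -1.11, and 0.030, -1.04 and -0.063. With at least 200 UMIs a gene, 137, 92 and 62 genes were higher and 378, 199 and 144 lower by at least 2-fold, against 293, 388 and 356 and 1966, 1064 and 935 with 20, and the share lower was 14.1%, 8.11% and 5.98% of the genes compared. With no minimum, 1704 and 2022 genes were higher at 4 h and 8 h. The cause of these differences was not tested.

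No paired analysis was possible because each treatment had 1 library. The alternatives planned for scATAC-seq counts at CCL2 and CCL8 were not run. CCL8 had 335 UMIs in 32 cells at 8 h. A minimum of 1000 UMIs a cell, a pseudocount of 1 CPM and a mitochondrial limit of 10% moved none of the 6 ratios beyond its counting interval.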
